A study of Mus musculus with 96 samples.

Results

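The interleukin-6 (IL-6) family was followed through 9 genes in the mouse striatum: the ligands Il6, Il11, Lif and Clcf1, the receptor subunits Osmr, Il6st and Lifr, the feedback inhibitor Socs3 and the transcription factor Stat3. These 9 rows were taken by gene symbol from the 24060 gene rows of each deposited table. RNA came from 48 mice in 6 experiments, each with 4 treated and 4 control mice. For 3 weeks before extraction an AAV had driven HA-tagged Rpl22, a ribosomal protein, in the striatal astrocytes of every mouse. Each mouse gave 1 library of RNA pulled down with the tag (IP, enriched for ribosome-bound RNA of astrocytes). It also gave 1 of the cleared lysate before the pull-down (input, all cells of the tissue), so that 96 libraries were compared.

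In the quinolinic acid experiment, C57BL/6 mice received the excitotoxin (30 nM in the labels) or vehicle by injection into the striatum, and treated mice were taken 2 weeks later. In the LPS experiment, C57BL/6 mice received the bacterial endotoxin intraperitoneally at 5 mg/kg, taken 24 h later, or vehicle. In the Kir4.1 experiment all mice were Kir4.1flox/flox, and an AAV5 with the astrocyte promoter GfaABC1D delivered Cre or, in controls, TdTomato. A further experiment set mice labelled Itpr2-/- (IP3R2 knockout) against Itpr2+/+ littermates. In the remaining experiments C57BL/6 mice carried a designer receptor in striatal astrocytes, rM3Ds (coupled to Gs) or hM3Dq (coupled to Gq), and received its agonist CNO at 1 mg/kg or vehicle. CNO preceded extraction by 2 h with rM3Ds, and the labels give no interval for hM3Dq. No mice without a receptor received CNO, so an effect of CNO itself and of the receptor cannot be told apart. Each experiment has a submission code of its own, so differences between experiments and between batches cannot be told apart.

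IL-6 family cytokines act through receptors that share the subunit gp130, encoded by Il6st. Ligand binding brings gp130 together with a partner chain, such as the LIF receptor or the oncostatin M receptor, and associated Janus kinases then phosphorylate STAT3, which enters the nucleus. SOCS3 is induced by STAT3 and binds gp130 and the kinases, which closes a negative feedback loop. In the brain, this pathway is known for its part in the reactive state of astrocytes.

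The values matched most labels. Summed over 10 astrocyte markers, IP libraries held 4250 to 7690 FPKM (fragments scaled by gene length and library size), whereas 10 microglia markers summed to 19.8 to 38.2 FPKM in IP, other than in the 4 libraries after quinolinic acid. Other cell types were less depleted. Oligodendrocyte markers had mean sums of 1890 FPKM in IP and 1710 in input in quinolinic acid controls, and of 1500 and 2030 in TdTomato mice. For markers of medium spiny neurons, the striatum's projection neurons, these were 2420 and 4610 FPKM, and 1660 and 4270 FPKM. IP levels are thus not those of astrocytes alone. Kcnj10, which encodes Kir4.1, lay between 142 and 164 FPKM in IP of the 4 TdTomato mice and between 27.9 and 36.1 FPKM in IP of the 4 Cre mice. Itpr2 was not lower in the IP libraries labelled Itpr2-/- (10.4 to 14.5 FPKM) than in those labelled wild type (9.92 to 13.7 FPKM), and reads from outside a deleted part count for the whole gene. Chrm3, from which both designer receptors derive, was at 186 to 238 FPKM in vehicle IP with rM3Ds and at 74.1 to 110 FPKM with hM3Dq. Reads were aligned to the mouse genome, and whether both receptors are counted alike there was not tested, so these values do not rank receptor levels. By their sex-linked genes, all 4 quinolinic acid control mice were female and 3 of 4 treated mice male, all 8 hM3Dq mice were male, and each rM3Ds arm held 2 females and 2 males. The library of LPS mouse 2 stood apart in IP and input. Without it, 8280 genes passed a limma adjusted p of 0.05 in LPS IP (5096 with it) and 8627 in input (4514 with it). The LPS changes of Lif, Lifr and Socs3 are given with and without it, and the other LPS changes with it.

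Without treatment, the receptors and the transducer were abundant in IP and the ligands scarce. In the 24 control mice Il6st, the shared signalling chain, was at 50.2 ± 5.79 FPKM in IP and 19.5 ± 1.25 FPKM in input (mean ± SD, n = 24). Stat3 stood next in IP, at 44.4 ± 5.99 against 19.3 ± 1.81 FPKM in input. Both genes were higher in IP than in input in 24 of 24 mice. Osmr, the oncostatin M receptor chain, was at 10.7 ± 3.56 FPKM in IP and 2.13 ± 0.654 in input, and Lifr, the LIF receptor chain, at 10.5 ± 0.898 and 5.80 ± 0.631 FPKM. The IP levels of Osmr and Lifr differed by less than their spread. Osmr had the largest IP to input ratio of the members, a log2 difference of 2.47 ± 0.07 (SE; limma adjusted p = 3.52e-23), with 24 of 24 mice higher in IP and no overlap between IP and input libraries.

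Socs3 was at 2.54 ± 0.881 FPKM in IP and 2.14 ± 0.764 in input in these controls, a log2 difference of 0.45 ± 0.06 (limma adjusted p = 3.27e-07, higher in 18 of 24 mice). The ligands all lay under 1 FPKM on average. Lif was at 0.775 ± 0.198 FPKM in IP and 0.272 ± 0.0960 in input and was higher in IP in 24 of 24 mice. Il6 had means of 0.545 ± 0.416 and 0.273 ± 0.186 FPKM, with 2 IP libraries and 1 input library listed at 0. For Clcf1, 0.371 ± 0.222 FPKM in IP and 0.433 ± 0.293 in input did not differ past the test (limma adjusted p = 0.578), and Il11, at 0.164 ± 0.0877 and 0.128 ± 0.0744 FPKM, was too low to be tested. The neighbours Lif and Il6, and Il6 and Clcf1, differed by less than their spread. In all, 7 of the 9 members were higher in IP by the test, beside 43.4% of all genes tested.

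**Figure D1:**
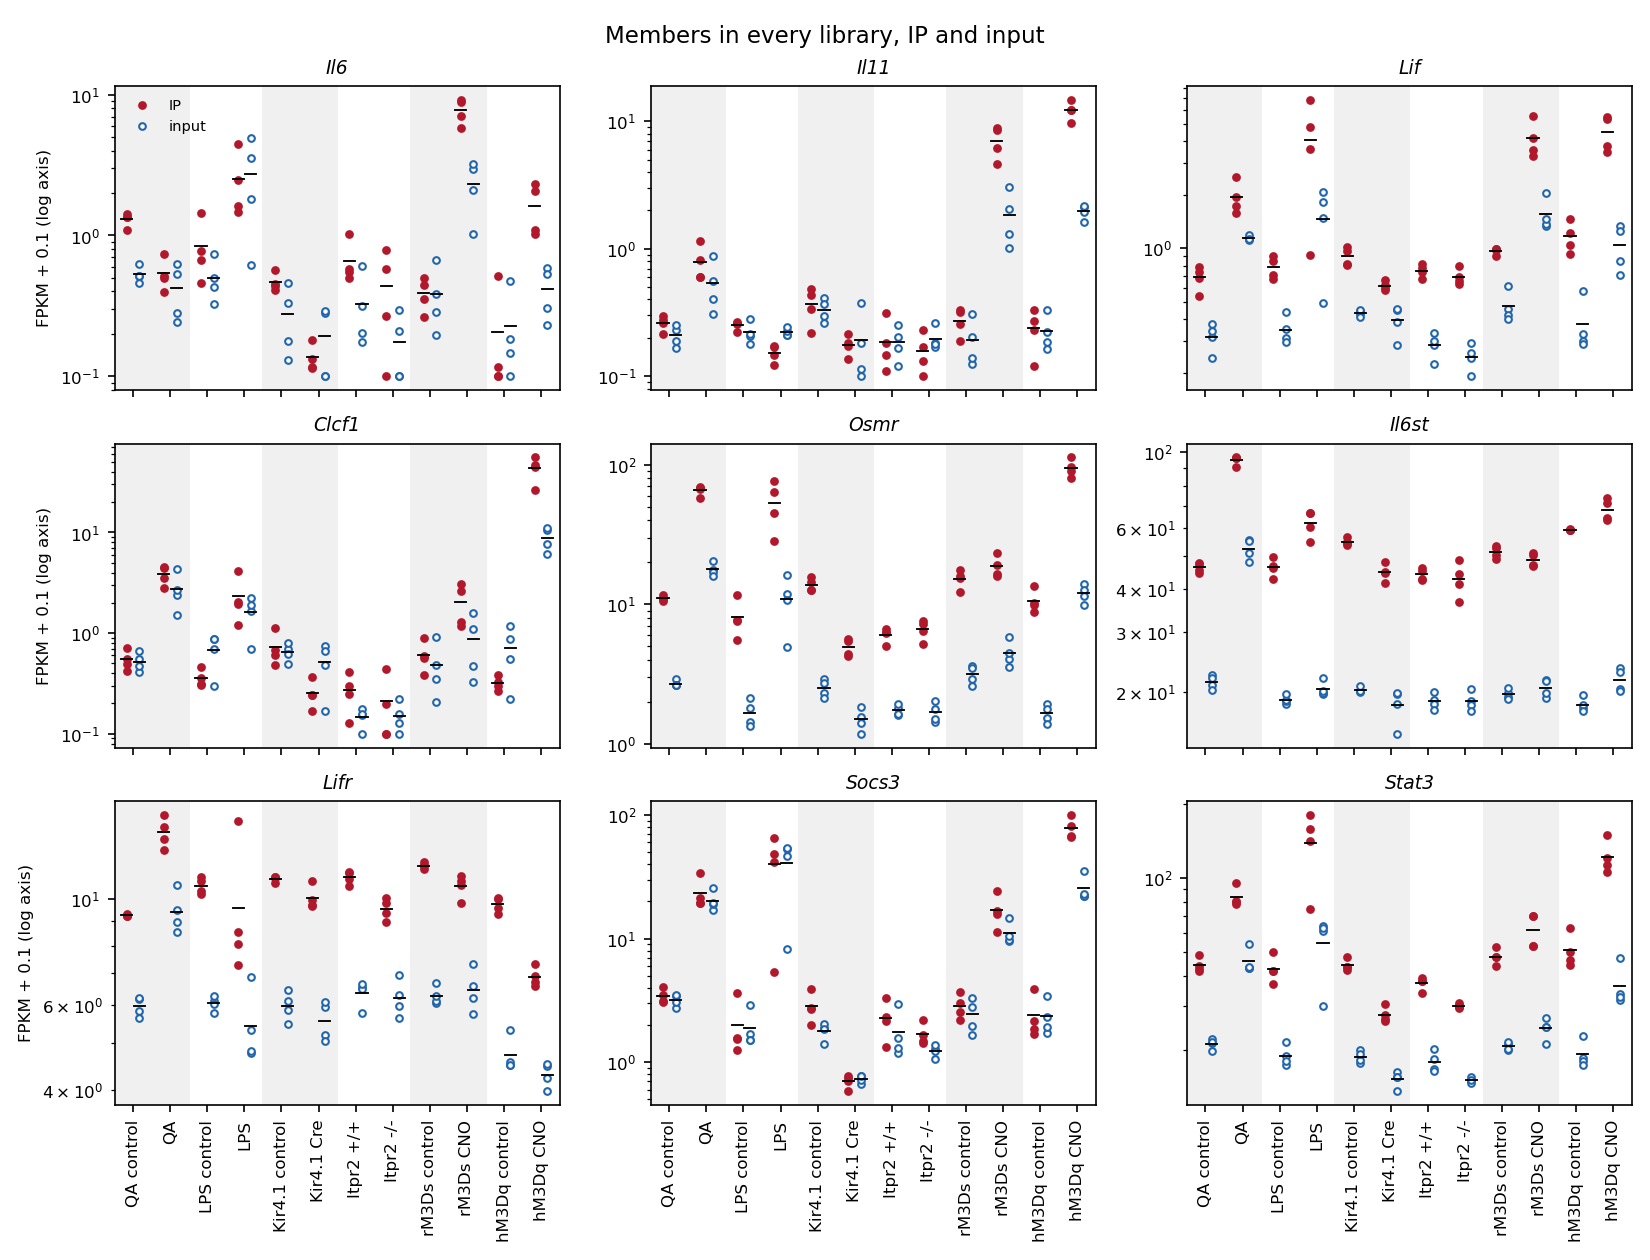
FPKM of each member (plus 0.1, log axis) in all 96 libraries, 4 mice per group, with IP as filled and input as open points and a bar at the mean. Il6st and Stat3 sit highest in control IP, at means of 50.2 and 44.4 FPKM, and Clcf1, Osmr and Socs3 in hM3Dq CNO IP lie far above their controls.

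Treatment moved the members in 5 of the 6 experiments. CNO with hM3Dq changed all 9 members in IP, 8 higher and 1 lower (limma, Benjamini-Hochberg adjusted p under 0.05), where 45.4% of all genes tested changed, 24.4% higher and 21.0% lower. Quinolinic acid changed 8, 7 higher and 1 lower, where 74.1% of genes changed, 35.2% higher and 38.9% lower, and LPS raised 7, where 18.2% of genes rose. CNO with rM3Ds raised 5, where 3.29% of genes rose. Cre in Kir4.1flox/flox mice lowered 5, where 15.6% of genes fell. Between mice labelled Itpr2-/- and wild type 0 members passed, as did 0.00% of all genes, while 785 of the genes tested had an unadjusted p under 0.05 by limma and voom on recovered reads also called 0 members. A gene was tested where at least 4 libraries of the comparison reached 0.5 FPKM, which 9 members did in IP with each receptor, 8 after quinolinic acid, 8 after LPS and 6 with Cre. Of these, 3 with hM3Dq (Il6, Il11 and Clcf1), 2 with rM3Ds (Il6 and Il11) and 1 after LPS (Clcf1) reached it in treated libraries alone, so that the rise itself brought them into the test, and their counts are no support beyond the values below. In a fit with no filter these 6 kept adjusted p from 1.92e-07 to 0.00404. With those genes kept in the test when each of the 8 libraries was left out, an analysis added after the data were seen, their adjusted p were at most 0.0125.

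In input fewer members changed, of 7 tested after quinolinic acid, 7 after LPS, 8 with each receptor and 6 with Cre. After quinolinic acid every member tested was called, in IP and in input. Quinolinic acid raised 7 (35.0% of all genes tested rose), LPS 5 (15.9%), CNO with rM3Ds 4 (0.570%) and CNO with hM3Dq 6 (2.61%), while Cre lowered 1 (0.346% fell) and the Itpr2 label gave 0 by limma (0.00709%; 1282 genes at an unadjusted p under 0.05). Of these input calls 5 were lost when a single library was left out, with limma adjusted p from 0.0564 to 0.148: Il6 and Il6st after LPS (each library other than mouse 2 for Il6st, and for Il6 each but treated mouse 2 and vehicle mouse 4), Socs3 with Cre, Il6 with rM3Ds (vehicle mice 1, 2 and 4 and CNO mice 1, 3 and 4) and Lif with hM3Dq (vehicle mice 2, 3 and 4). Lif there reached the filter in CNO libraries alone, as did Il11 in input with either receptor and Lif after quinolinic acid. The Lif call with hM3Dq (limma adjusted p = 0.0493) was also lost with a pseudocount of 1 or 0.01 and with the replicate number as a block. With the tested genes kept, it was lost without any 1 of 7 of the 8 libraries. Input holds RNA of all cells, so a fall in a cell type's number and less RNA per cell cannot be told apart there.

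**Figure D2:**
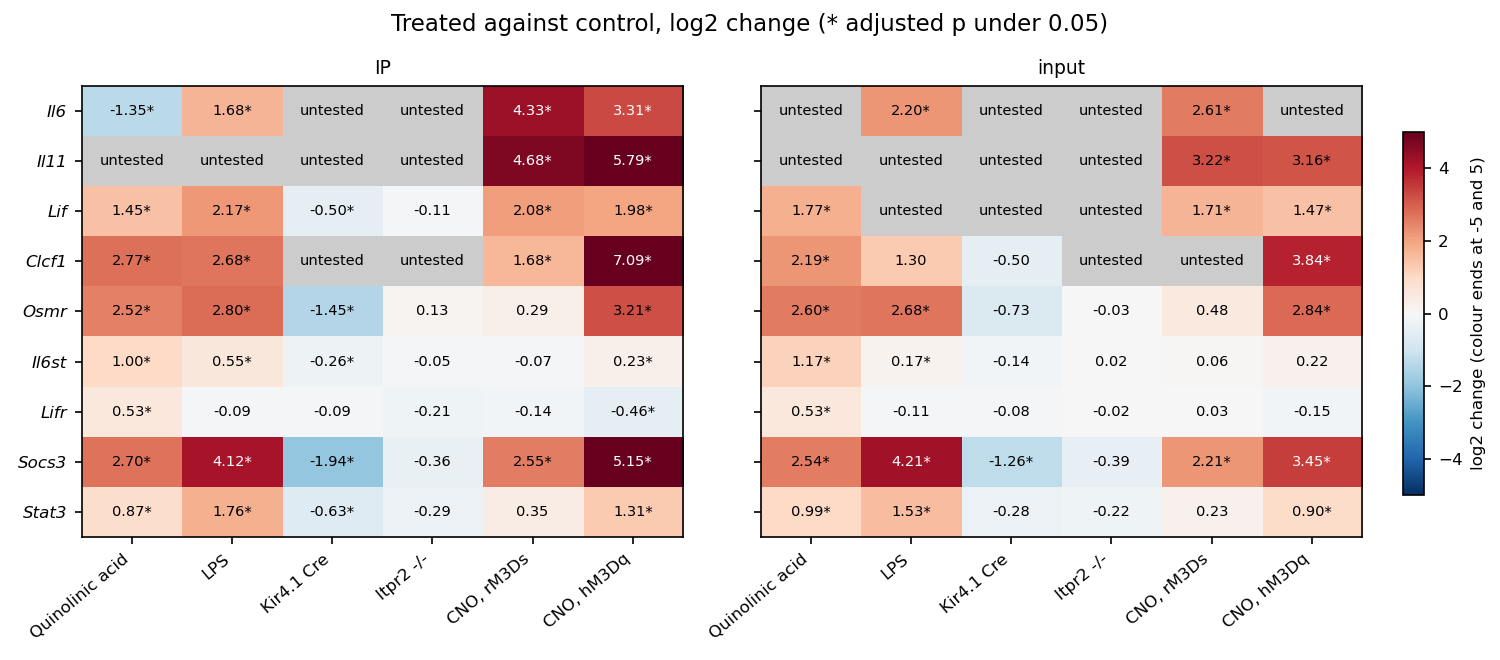
Log2 change of each member, treated against control, in each of the 6 experiments, in IP (left) and input (right); an asterisk marks a limma adjusted p under 0.05 and grey squares marked untested were too low to be tested. In IP the ligands rose after CNO in mice with either receptor, though the call for Clcf1 in rM3Ds IP was lost without any 1 of 5 libraries. Osmr rose with quinolinic acid, LPS and hM3Dq, and Socs3 rose in 4 experiments and fell with Cre.

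Clcf1 encodes cardiotrophin-like cytokine factor 1, a ligand of the ciliary neurotrophic factor receptor that signals through gp130 and the LIF receptor. Its IP values with hM3Dq were 0.199, 0.283, 0.168 and 0.224 FPKM after vehicle and 26.5, 55.6, 47.0 and 45.0 FPKM after CNO. Every CNO library lay far above every vehicle library, whose values rest on 7 to 15 reads each. The means rose from 0.218 ± 0.0488 to 43.5 ± 12.3 FPKM, 199-fold (log2 7.09 ± 0.21 SE, limma adjusted p = 1.15e-08). No vehicle library reached 0.5 FPKM, and with no filter the limma adjusted p was 1.92e-07. In the same experiment the IP means of Stat3 and Il6st were 50.7 and 59.3 FPKM after vehicle and 122 and 68.0 FPKM after CNO. In input Clcf1 rose from 0.608 ± 0.414 to 8.78 ± 2.42 FPKM (log2 3.84, limma adjusted p = 0.00119). The rise on the log2 scale was larger in IP than in input by 3.29 ± 0.49 (limma adjusted p = 9.43e-04).

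Clcf1 moved less elsewhere. Quinolinic acid took its IP mean from 0.447 ± 0.124 to 3.73 ± 0.837 FPKM (log2 2.77, limma adjusted p = 2.24e-06) and LPS from 0.258 ± 0.0726 to 2.23 ± 1.25 FPKM (log2 2.68, limma adjusted p = 0.00255; 0.00404 with no filter, since no LPS vehicle library reached it), with no overlap between arms in either. With rM3Ds the vehicle IP libraries lay at 0.486, 0.467, 0.287 and 0.796 FPKM and the CNO libraries at 1.18, 1.08, 2.97 and 2.5 FPKM. These arms did not overlap either, and the rise (log2 1.68 ± 0.35, limma adjusted p = 0.0269) was lost when vehicle mouse 1, 2 or 3 or CNO mouse 3 or 4 was left out (adjusted p from 0.0609 to 0.0880), with no filter (0.0514) and with voom on recovered reads (0.0512). With Cre the IP values ran from 0.0678 to 0.264 FPKM against 0.382 to 1.02 in controls, too low to be tested, and the arms did not overlap (two-sided exact permutation p = 0.0286, the smallest that 4 against 4 allow).

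Il11, the ligand of the IL-11 receptor, rose after CNO in mice with either designer receptor. With rM3Ds its IP values were 0.229, 0.216, 0.0878 and 0.155 FPKM after vehicle and 4.53, 6.04, 8.80 and 8.45 FPKM after CNO (log2 4.68 ± 0.24, limma adjusted p = 3.38e-06). With hM3Dq they were 0.132, 0.231, 0.0195 and 0.173 FPKM after vehicle and 9.58, 12.1, 12.2 and 14.7 FPKM after CNO (log2 5.79 ± 0.28, limma adjusted p = 2.8e-07). No vehicle library reached the filter, and with no filter the adjusted p were 1.51e-05 with rM3Ds and 2.3e-06 with hM3Dq. In both experiments every CNO library was above every vehicle library, and the means rose 40.4-fold and 87.4-fold. Input means rose as well, from 0.0932 to 1.76 FPKM with rM3Ds (log2 3.22) and from 0.125 to 1.86 FPKM with hM3Dq (log2 3.16). Elsewhere Il11 was too low to be tested. Its IP means went from 0.162 to 0.690 FPKM after quinolinic acid, from 0.153 to 0.0527 FPKM after LPS and from 0.269 to 0.0765 FPKM with Cre, each with no overlap (two-sided exact permutation p = 0.0286, the smallest possible); the LPS libraries held 2 to 7 reads each.

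Il6 encodes interleukin-6 itself. With rM3Ds it lay at 0.346, 0.399, 0.252 and 0.163 FPKM in vehicle IP and at 6.97, 5.75, 9.11 and 8.83 FPKM in CNO IP. With hM3Dq it lay at 0.412, 0, 0 and 0.0168 FPKM in vehicle IP and at 0.916, 1.99, 2.23 and 0.995 FPKM in CNO IP. Neither pair of arms overlapped, and the log2 changes were 4.33 ± 0.21 (limma adjusted p = 2.79e-06) and 3.31 ± 0.55 (limma adjusted p = 8.15e-04). No vehicle library reached the filter in either, and with no filter the adjusted p were 1.32e-05 and 0.0018. The hM3Dq value depends on the constant of 0.1 FPKM added before the log, since 3 of 4 vehicle libraries held 0 or 1 reads. After LPS the IP values rose from 0.676, 0.359, 0.570 and 1.34 to 1.38, 1.51, 4.4 and 2.38 FPKM, arms that lay apart by a small gap (log2 1.68 ± 0.44, limma adjusted p = 0.0209). This call was lost when vehicle mouse 1, 2 or 3 or treated mouse 3 or 4 was left out (adjusted p from 0.0509 to 0.0580).

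Quinolinic acid went the other way for Il6 in IP, from 1.26, 1.31, 1.00 and 1.25 FPKM after vehicle to 0.411, 0.298, 0.401 and 0.641 FPKM, and it was the only fall among the members there (log2 -1.35 ± 0.20, limma adjusted p = 1.74e-04). All 4 treated libraries lay below all 4 controls. With sex as a covariate the log2 change was -1.40 (limma adjusted p = 0.00702), with 1 female among the treated mice to carry that term. The control IP mean of Il6 in this experiment, 1.21 ± 0.140 FPKM, was the highest of the 6 control groups, which otherwise ran from 0.107 to 0.736 FPKM. Summed leukocyte markers in IP moved alike, from 9.65 to 10.8 FPKM in controls to 1.90 to 6.02 FPKM in treated mice. So did those of medium spiny neurons, the striatum's projection neurons, from 2360 to 2480 down to 345 to 531 FPKM. In input the leukocyte sums went the other way on average, from 45.2 FPKM (40.6 to 50.7) in controls to 107 FPKM (44.7 to 148) in treated mice. The part of leukocyte or neuron RNA in the Il6 result was not tested. With Cre, Il6 was at 0.0151 to 0.0818 FPKM in IP (1 to 6 reads) against 0.307 to 0.471 FPKM in controls, too low to be tested, with no overlap.

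Lif, the leukemia inhibitory factor, was the ligand that passed the test in 5 experiments. CNO raised its IP values with rM3Ds from 0.897, 0.80, 0.885 and 0.877 to 3.22, 3.45, 5.46 and 4.09 FPKM (log2 2.08 ± 0.15, limma adjusted p = 2.84e-05). With hM3Dq they rose from 1.37, 1.12, 0.831 and 0.94 to 5.39, 5.21, 3.67 and 3.37 FPKM (log2 1.98 ± 0.21, limma adjusted p = 4.2e-05). Quinolinic acid raised the mean from 0.586 ± 0.110 to 1.84 ± 0.409 FPKM (log2 1.45, limma adjusted p = 5.35e-05). After LPS 3 IP libraries were at 3.53, 6.75 and 4.69 FPKM and mouse 2 at 0.812, just above the highest control of 0.805 FPKM. The log2 change there was 2.17 (limma adjusted p = 0.0219), it was 2.84 without mouse 2 (adjusted p = 1.26e-05), and it was lost when any 1 of the other 7 libraries was left out (adjusted p from 0.0511 to 0.0632). Cre lowered Lif from 0.80 ± 0.108 to 0.517 ± 0.0362 FPKM with no overlap (log2 -0.50, limma adjusted p = 0.0228), a call that was lost when TdTomato mouse 1 or 2 or Cre mouse 2 was left out (adjusted p from 0.0516 to 0.0645).

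Windows at start sites of the 3 ligands that rose after CNO with either receptor beside Clcf1, and of Socs3, are shown for the short motifs they hold. RefSeq (GRCm38.p6, the assembly of mm10) gave 10 windows of 300 bases, from 250 bases before to 50 after a start site, for 8 of the 9 members; Clcf1 was not matched, and Il11 and Lifr have 2 windows each. The motif TGANTCA, a loose form of the site of AP-1 factors with any base in the middle, was read on both strands. It occurred in 7.81% of all 32851 windows and in those of Il6 (at -249), Il11 (at -98 in 1 of its windows), Lif (at -228) and Osmr (at 4, just past the start site). The Osmr match read TGATTCA, whereas those of the ligands had C or G in the middle. TTCNNNGAA, the site of STAT factors, occurred in 8.30% of windows and, among the members, in Socs3 (at -154). TGACG, a core of the site of the cAMP response element binding protein, occurred in 20.8% of windows and, among the members, in Il6 (on the other strand, at -135), while the full site TGACGTCA, in 1.79% of windows, was in none of theirs. The motifs overlapped nowhere in these windows. The 250 bases before the start site follow, 5′ to 3′ on the gene's strand, with TGANTCA in capitals in the ligands and TTCNNNGAA in capitals in Socs3. The windows lie at chr5:30012864-30013113 (plus strand) for Il6, chr7:4778142-4778391 (minus) for Il11, chr11:4257318-4257567 (plus) for Lif and chr11:117969367-117969616 (minus) for Socs3. The Il11 and Socs3 windows shown, and those of Osmr and Lifr, lie inside the annotated gene, past its outermost start (4782907 for Il11, 117970336 for Socs3). A match or its absence there describes an inner start site.
Il6: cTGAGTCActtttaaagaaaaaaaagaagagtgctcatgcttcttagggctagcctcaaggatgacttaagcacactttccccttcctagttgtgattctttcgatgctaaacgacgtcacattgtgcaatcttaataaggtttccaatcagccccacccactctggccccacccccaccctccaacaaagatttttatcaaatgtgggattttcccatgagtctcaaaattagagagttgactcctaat
Il11: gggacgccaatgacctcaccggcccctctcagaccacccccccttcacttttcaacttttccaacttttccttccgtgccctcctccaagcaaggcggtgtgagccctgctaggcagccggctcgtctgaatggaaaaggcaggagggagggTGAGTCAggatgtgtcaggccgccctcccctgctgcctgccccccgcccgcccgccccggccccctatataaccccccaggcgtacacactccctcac
Lif: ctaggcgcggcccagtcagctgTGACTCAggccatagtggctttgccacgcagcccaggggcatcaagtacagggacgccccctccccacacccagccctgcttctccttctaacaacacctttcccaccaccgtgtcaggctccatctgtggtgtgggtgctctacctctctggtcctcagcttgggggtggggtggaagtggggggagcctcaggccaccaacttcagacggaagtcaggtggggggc
Socs3: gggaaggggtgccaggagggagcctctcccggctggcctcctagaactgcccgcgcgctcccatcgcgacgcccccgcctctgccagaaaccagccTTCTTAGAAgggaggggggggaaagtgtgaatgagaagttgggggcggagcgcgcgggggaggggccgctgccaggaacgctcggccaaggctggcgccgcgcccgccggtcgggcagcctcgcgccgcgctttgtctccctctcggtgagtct
A match describes these letters and says nothing of binding in these mice.

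Of the receptor chains, Osmr moved most. Its IP values rose with hM3Dq from 13.5, 9.73, 8.73 and 10.1 FPKM after vehicle to 96.6, 113, 89.7 and 80.8 FPKM after CNO (log2 3.21 ± 0.15, limma adjusted p = 2.18e-07). After quinolinic acid they rose from 11, 11.5, 10.5 and 10.8 to 67.2, 68.3, 57.5 and 69.1 FPKM (log2 2.52 ± 0.06, limma adjusted p = 7.06e-08). After LPS they rose from 7.58, 5.44, 7.45 and 11.6 to 76.4, 28.4, 63.4 and 45.1 FPKM (log2 2.80 ± 0.35, limma adjusted p = 0.00173), with mouse 2 the lowest. Treated and control arms did not overlap in any of the 3. Input rose by similar log2 amounts, 2.84 with hM3Dq, 2.60 after quinolinic acid and 2.68 after LPS.

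With rM3Ds, Osmr was at 15.7, 17.5, 12.2 and 15.2 FPKM after vehicle and at 15.7, 16.3, 23.3 and 19.0 FPKM after CNO, arms that overlapped (log2 0.29 ± 0.14, limma adjusted p = 0.451). Cre lowered Osmr in IP from 14.3, 12.6, 12.5 and 15.5 to 4.28, 5.55, 4.18 and 5.35 FPKM (log2 -1.45 ± 0.11, limma adjusted p = 1.16e-05). No Cre library reached the lowest control. In input the same comparison gave means of 2.41 ± 0.346 and 1.4 ± 0.276 FPKM (log2 -0.73, limma adjusted p = 0.141), and the IP change was larger than the input change by -0.72 ± 0.14 (limma adjusted p = 0.0269).

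Il6st, the shared chain, stayed within a narrower range. Quinolinic acid took it in IP from 44.3, 45.4, 47.6 and 47.3 to 96.4, 90.6, 96.2 and 96.6 FPKM, 2.06-fold (log2 1.00 ± 0.05, limma adjusted p = 2.88e-07), with every treated library near the same level. LPS gave 46.1 ± 2.76 against 62.0 ± 5.51 FPKM (log2 0.55, limma adjusted p = 0.00700). With hM3Dq the 4 vehicle libraries lay between 59.1 and 59.5 FPKM and the CNO libraries between 63.3 and 73.7 FPKM (log2 0.23, limma adjusted p = 0.0262). That small rise was lost when vehicle mouse 2, 3 or 4 or CNO mouse 1 or 2 was left out (adjusted p from 0.0514 to 0.0641). Cre lowered Il6st from 54.8 ± 1.30 to 44.6 ± 2.59 FPKM (log2 -0.26, limma adjusted p = 0.00234). With rM3Ds the values were 51.2 ± 2.08 and 48.5 ± 2.19 FPKM (limma adjusted p = 0.705).

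Lifr, the LIF receptor chain, was the member whose direction differed from the others with hM3Dq. Its IP values fell there from 9.95, 9.92, 9.22 and 9.50 to 6.50, 6.80, 7.22 and 6.61 FPKM, with no overlap (log2 -0.46 ± 0.06, limma adjusted p = 2.62e-04). Quinolinic acid raised it, with controls between 9.11 and 9.20 FPKM and treated mice between 12.5 and 14.9 FPKM (log2 0.53, limma adjusted p = 5.11e-05), and it rose by the same 0.53 in input, where summed astrocyte markers lay at 1440 to 1720 FPKM in treated and 932 to 989 FPKM in control mice (8 of 10 rose); their part in the input rises of the members was not tested. After LPS, 3 mice lay at 7.19, 8.42 and 7.94 FPKM, below all controls at 10.2 to 11, and mouse 2 at 14.4, above all of them. The LPS test gave a log2 change of -0.09 (limma adjusted p = 0.680), and without mouse 2 one of -0.24 (adjusted p = 0.0144). In the other experiments Lifr did not pass the test in IP or in input.

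Stat3, the transducer, rose where Osmr rose. Its IP values went with hM3Dq from 62.8, 46.2, 44.1 and 49.7 to 120, 149, 113 and 106 FPKM (log2 1.31 ± 0.14, limma adjusted p = 4.92e-05). After LPS they went from 41.8, 36.8, 41.8 and 50 to 181, 74.6, 158 and 141 FPKM (log2 1.76 ± 0.28, limma adjusted p = 0.00433), again with mouse 2 lowest but above all controls. Quinolinic acid gave 44.2 ± 2.95 against 83.8 ± 8.08 FPKM (log2 0.87, limma adjusted p = 5.04e-06). Cre lowered Stat3 from 44.1 ± 2.49 to 27.7 ± 1.96 FPKM (log2 -0.63, limma adjusted p = 4.5e-05). With rM3Ds, 43.7, 47.6, 47.4 and 52.4 FPKM after vehicle stood below 53.0, 52.7, 69.7 and 69.9 FPKM after CNO, by a narrow gap and short of the threshold (log2 0.35 ± 0.10, limma adjusted p = 0.123); with sex as a covariate that difference passed (adjusted p = 0.00875), as it did with the replicate number as a block (adjusted p = 0.0303).

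Socs3, the feedback inhibitor, rose in 4 experiments and fell in 1. With hM3Dq its IP values went from 3.81, 1.75, 1.60 and 2.04 FPKM after vehicle to 81.0, 100, 66.3 and 68.2 FPKM after CNO, 34.3-fold (log2 5.15 ± 0.25, limma adjusted p = 2.8e-07). With rM3Ds they went from 3.63, 2.91, 2.09 and 2.47 to 11.3, 15.8, 16.6 and 24.2 FPKM, 6.11-fold (log2 2.55 ± 0.22, limma adjusted p = 1.21e-04). In both, the arms lay well apart. After LPS, vehicle mice had 1.48, 1.15, 1.43 and 3.51 FPKM and treated mice 41.7, 5.31, 64.7 and 48.4 FPKM (log2 4.12 ± 0.77, limma adjusted p = 0.00742). Mouse 2, at 5.31 FPKM, was nearer the controls than its group, and without it the log2 change was 4.99 ± 0.34 (adjusted p = 6.88e-06).

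Quinolinic acid raised Socs3 in IP from 3.95, 3.42, 2.97 and 3.05 to 19.5, 19.4, 21.3 and 33.6 FPKM (log2 2.70 ± 0.18, limma adjusted p = 1.14e-06). Cre lowered it from 2.58, 1.90, 2.63 and 3.8 to 0.608, 0.653, 0.674 and 0.482 FPKM (log2 -1.94 ± 0.19, limma adjusted p = 6.88e-05). It was the only member called in Cre input, at 1.70 ± 0.275 against 0.634 ± 0.0503 FPKM (log2 -1.26, limma adjusted p = 0.0214), and that call was lost with the replicate number as a block (adjusted p = 0.0765) and when TdTomato mouse 1, 3 or 4 or Cre mouse 1 or 3 was left out (adjusted p from 0.0564 to 0.126). Socs3 in input rose by 3.45 with hM3Dq, 2.21 with rM3Ds, 4.21 after LPS and 2.54 after quinolinic acid on the log2 scale. Without LPS mouse 2 the LPS value was 4.90 (limma adjusted p = 1.02e-06). Socs3 and Osmr did not keep one proportion: FPKM of Socs3 over FPKM of Osmr in IP had a median of 0.193 after vehicle and 0.841 after CNO with hM3Dq, and 0.169 and 0.843 with rM3Ds, with no overlap in either. After LPS it was 0.783 against 0.203 in controls, with mouse 2, at 0.187, just below the lowest control. After quinolinic acid it was 0.330 against 0.289, and these libraries overlapped.

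Between the libraries labelled Itpr2-/- and wild type, Stat3 in IP was at 29.3, 31.0, 30.3 and 29.9 FPKM against 39.0, 37.9, 33.8 and 37.8 FPKM. These arms did not overlap, and the difference did not pass the test over all genes (log2 -0.29 ± 0.06, limma adjusted p = 0.410). Lifr likewise lay lower without overlap, at 9.44 ± 0.487 against 11 ± 0.338 FPKM (log2 -0.21, limma adjusted p = 0.705). Osmr was at 6.51 ± 1.07 and 5.94 ± 0.733 FPKM and Socs3 at 1.59 ± 0.347 and 2.17 ± 0.812 FPKM, each with overlap.

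The CNO responses of the receptors were compared directly, each against its own vehicle. The hM3Dq mice were all male and the rM3Ds mice of both sexes, and vehicle Chrm3 FPKM was lower with hM3Dq. Receptor, sex, any difference in receptor level and experiment thus cannot be told apart here. All 4 ligands were called higher in IP with either receptor, the Clcf1 call with rM3Ds being the one lost without any 1 of 5 libraries. The hM3Dq response exceeded the rM3Ds response for Clcf1 by 5.41 ± 0.43 on the log2 scale (limma adjusted p = 2.09e-07), for Osmr by 2.89 ± 0.21 (adjusted p = 7.25e-08), for Socs3 by 2.57 ± 0.36 (adjusted p = 6.39e-05) and for Stat3 by 0.93 ± 0.18 (adjusted p = 0.00119). Smaller differences were called for Lifr (-0.35), for Il6st (0.28; adjusted p = 0.0507 without rM3Ds vehicle mouse 3) and for Il11 (1.12, limma adjusted p = 0.0474). The Il11 call was lost when any 1 of 10 of the 16 libraries was left out and the Stat3 call in input when any 1 of 12 was. Il6 differed by -1.0 ± 0.63 (limma adjusted p = 0.261) and Lif by -0.12 ± 0.26 (limma adjusted p = 0.778), which did not pass. The Il6 value depends on the 0.1 FPKM added before the log, since hM3Dq vehicle libraries other than mouse 1 held 0 to 0.0168 FPKM. It does not show equal Il6 responses: CNO IP levels were 5.75 to 9.11 FPKM with rM3Ds and 0.916 to 2.23 FPKM with hM3Dq. In IP, 6 members were thus higher and 1 lower with hM3Dq, where 27.8% of all genes tested differed, 14.3% higher and 13.5% lower. Il11, counted among the 6, reached the filter in CNO libraries alone, so that its rise itself brought it into this test. In input the difference passed for Osmr (2.37) and Stat3 (0.68), 2 of 9 where 0.950% of genes were higher. The dose was the same, but the interval after CNO is labelled for rM3Ds only.

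**Figure D3:**
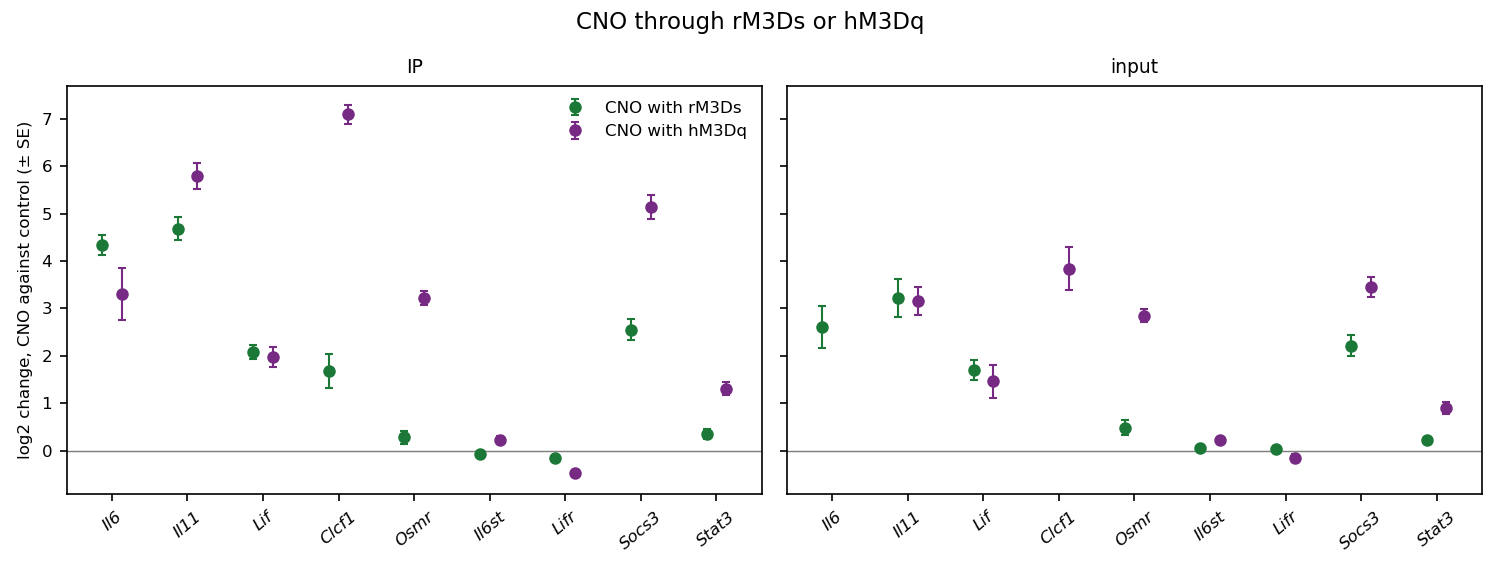
Log2 change of each member after CNO against vehicle (points, ± SE, 4 mice per arm) with rM3Ds and with hM3Dq, in IP and in input; members too low to be tested have no point. Il6 and Lif did not differ past the test between receptors in IP, where the hM3Dq point of Il6 depends on the 0.1 FPKM added before the log. Clcf1 (7.09 against 1.68), Osmr (3.21 against 0.29) and Socs3 (5.15 against 2.55) lie higher with hM3Dq in IP.

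The effect of treatment was also set against itself between IP and input of the same mice. With hM3Dq, Il11 (2.72 ± 0.36, limma adjusted p = 5.13e-04), Socs3 (1.66 ± 0.11, adjusted p = 8.01e-06) and Stat3 (0.37 ± 0.08, adjusted p = 0.00974) rose more in IP, as Clcf1 did. Lifr fell more (-0.35, limma adjusted p = 0.0378, lost when any 1 of 6 of the 8 mice was left out). Of all genes tested 21.5% were called, 11.9% higher and 9.57% lower. Il11 reached the filter in CNO libraries alone, so that its rise itself brought it into this test. With rM3Ds, Il6 rose more in IP (1.80 ± 0.34, limma adjusted p = 0.0208), the 1 member where 1.72% of genes were higher, and the call was lost when CNO mouse 1, 2 or 3 was left out. With Cre, Osmr and Stat3 (-0.35, limma adjusted p = 0.0414) fell more in IP, 2 members where 1.87% of genes were lower, and each call was lost when any 1 of 6 of the 8 mice was left out. After quinolinic acid Il6 (-0.90), Il6st (-0.25) and Stat3 (-0.20) had lower differences in IP, where 36.6% of genes did and the median of all genes was -0.16; the Il6 and Stat3 calls were lost with another scaling (RLE). The Il6 call was also lost without vehicle mouse 1, 2 or 4 or treated mouse 1 or 4 (adjusted p from 0.0646 to 0.164), and without vehicle mouse 2 those for Il6st (adjusted p = 0.447) and Stat3 (adjusted p = 0.965) were lost. After LPS 0 members passed by limma, where 8.54% of genes were called and 4267 had an unadjusted p under 0.05. The smallest limma adjusted p were 0.0518 for Il6st, 0.0534 for Clcf1 and 0.0667 for Stat3. Without LPS mouse 2, 3 members passed and 4922 genes were called (1273 with it).

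The wider pathway was described with fixed lists. Of 6 further family ligands, 3 could be tested in IP after quinolinic acid and all 3 rose, where 35.2% of all genes did, among them Cntf, the ciliary neurotrophic factor, from 0.413 to 1.92 FPKM (log2 1.95, limma adjusted p = 6.36e-06). With hM3Dq 1 of the 6 could be tested, Ctf1 (cardiotrophin 1), and it fell from 1.72 to 0.563 FPKM (log2 -1.40, limma adjusted p = 8.24e-04; named after its values were seen). In input 5 of the 6 could be tested after quinolinic acid and all 5 rose, where 35.0% of genes did, with Osm, the ligand of the Osmr chain, from 0.208 to 1.22 FPKM (log2 2.03, limma adjusted p = 3.33e-05). Microglia markers summed to 4510 to 6520 FPKM in treated and 816 to 956 FPKM in control input there, and to 76.8 to 124 against 32.5 to 38.2 FPKM in IP, and 10 of 10 rose in each; their part in these results was not tested. Of 5 further receptor chains, Il6ra, the IL-6 receptor, rose in IP with hM3Dq from 0.332 to 2.46 FPKM (log2 2.61, limma adjusted p = 1.92e-05), and after LPS (log2 2.09) and quinolinic acid (log2 1.71). Cntfr, the ciliary neurotrophic factor receptor, fell with hM3Dq from 47.8 to 27.8 FPKM (log2 -0.77, limma adjusted p = 0.00365), and Il11ra1, the IL-11 receptor, from 18.7 to 12.7 FPKM (log2 -0.52, limma adjusted p = 0.00136).

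Of 10 further transducers, all tested in IP, 2 rose and 0 fell with hM3Dq (median log2 0.19), beside 24.4% and 21.0% of all genes tested. After LPS 3 rose and 1 fell, beside 18.2% and 19.1%. After quinolinic acid 7 rose and 2 fell, beside 35.2% and 38.9%. With Cre 1 rose and 2 fell, beside 13.8% and 15.6%, and 0 passed by limma with rM3Ds or the Itpr2 label. Among them, Stat5a rose in IP with hM3Dq (log2 1.07), LPS (1.58) and quinolinic acid (1.11). Jak1, a kinase bound to gp130, rose with hM3Dq from 49.8 to 71.0 FPKM (log2 0.55, limma adjusted p = 5.45e-05). Of 11 further inhibitors, 8 rose and 1 fell in IP with hM3Dq, where 24.4% of all genes tested rose and 21.0% fell. After LPS 4 rose and 1 fell, beside 18.2% and 19.1% of genes. After quinolinic acid 7 rose and 4 fell, beside 35.2% and 38.9%, so that all 11 were called where most genes were. With Cre 1 rose and 1 fell, beside 13.8% and 15.6%, and 0 passed by limma with rM3Ds or the Itpr2 label. They included Socs1 with hM3Dq, from 2.19 to 6.11 FPKM (log2 1.5, limma adjusted p = 0.00276).

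Genes listed as STAT3 targets, 18 in all and none of them a member, followed Socs3 and Osmr in part. In IP 16 rose after quinolinic acid (median log2 1.84 over 17 tested), beside 35.2% of all genes, 16 after LPS (2.48 over 17), beside 18.2%, and 15 with hM3Dq (1.86 over 16), beside 24.4%. With rM3Ds 7 rose (0.09 over 17), beside 3.29%, and 13 fell with Cre (-0.80 over 17), beside 15.6%, while 0 passed for the Itpr2 label (-0.24 over 16). The medians of all genes were within 0.05 of 0 in each. With hM3Dq, Timp1, an inhibitor of metalloproteinases, rose from 3.23 to 49.5 FPKM (log2 3.99, limma adjusted p = 1.27e-06) and the transcription factor Cebpd from 14.0 to 128 FPKM (log2 3.42, limma adjusted p = 6.59e-05). After LPS Timp1 rose from 5.57 to 103 FPKM (log2 4.48, limma adjusted p = 6.06e-04), and Lcn2, an iron-binding protein gene, by 7.26 on the log2 scale from 4.46 FPKM. With rM3Ds the largest rises were of Cebpb, from 4.90 to 30.1 FPKM (log2 2.62, limma adjusted p = 1.68e-04), and of the AP-1 subunit Junb, from 20.0 to 116 FPKM (log2 2.55, limma adjusted p = 3.38e-06). With Cre the adhesion molecule gene Icam1 fell from 33.2 to 3.72 FPKM (log2 -3.10, limma adjusted p = 1.87e-07) and Timp1 from 8.68 to 1.06 FPKM (log2 -3.00, limma adjusted p = 1.07e-04).

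**Figure D4:**
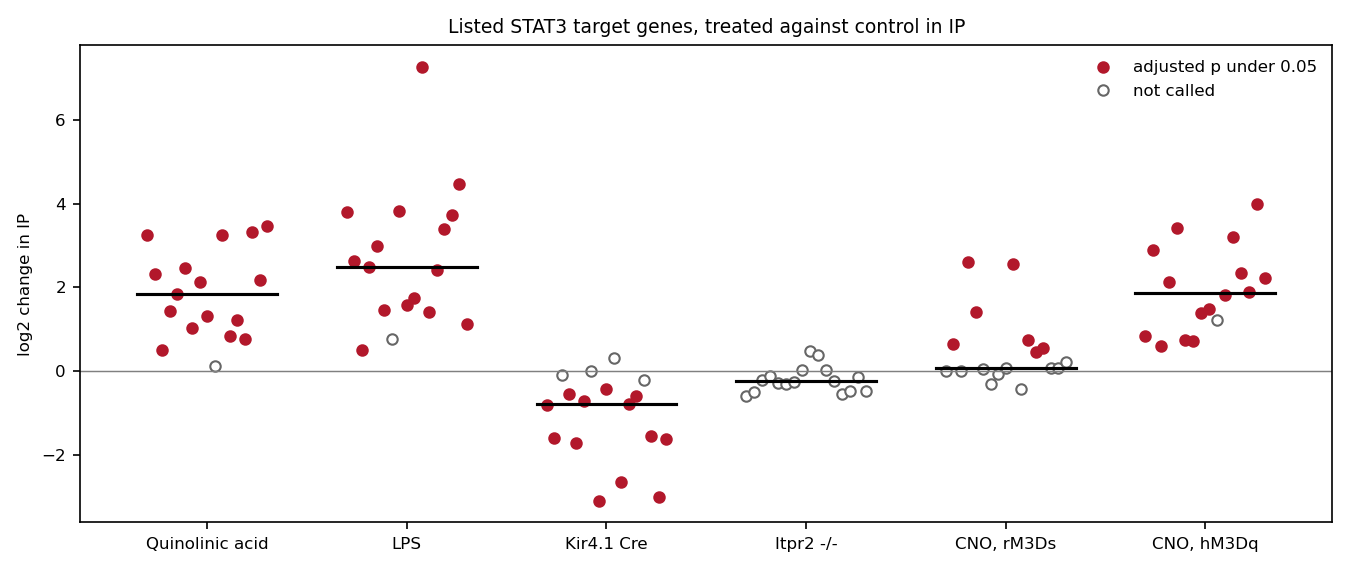
Log2 change in IP of each listed STAT3 target gene that could be tested, treated against control in each experiment, filled where the limma adjusted p was under 0.05, with a line at the median. The medians are 1.84 after quinolinic acid, 2.48 after LPS, -0.80 with Cre, -0.24 for the Itpr2 label, 0.09 with rM3Ds and 1.86 with hM3Dq.

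Markers of other cell types moved with some of these results in IP. After quinolinic acid medium spiny neuron markers fell for 10 of 10 genes in IP and in input, where their sums were 1780 to 1960 against 4530 to 4660 FPKM, and endothelial markers summed to 6.22 to 15.2 against 3.51 to 4.48 FPKM in IP. Oligodendrocyte markers were called lower with Cre for 10 of 10 genes and higher after quinolinic acid for 10 of 10, with sums of 954 to 1180 against 1310 to 1690 FPKM and of 3400 to 4680 against 1810 to 2010 FPKM. With Cre, microglia markers summed to 24.4 to 27.9 against 30.0 to 34.6 FPKM (4 of 8 tested lower), endothelial markers to 3.39 to 4.41 against 5.02 to 7.56 FPKM and medium spiny neuron markers to 1960 to 2020 against 1610 to 1710 FPKM (10 of 10 higher). With hM3Dq, astrocyte markers summed to 4620 to 6200 FPKM after CNO and 6910 to 7690 FPKM after vehicle (6 of 10 lower), microglia markers to 19.8 to 27.6 against 26.7 to 29.3 FPKM, and mural and fibroblast markers to 29.2 to 59.2 against 25.3 to 29.3 FPKM. Astrocyte markers with Cre summed to 5110 to 5460 against 4630 to 5150 FPKM in IP and to 988 to 1010 against 847 to 922 FPKM in input. After LPS, input sums were 43 to 60.8 against 26.3 to 39.6 FPKM for leukocyte markers and 874 to 994 against 827 to 869 FPKM for astrocyte markers. Medium spiny neuron markers summed there to 3280 to 3600 against 3780 to 3970 FPKM, and the sums of the other lists overlapped. The part of all these markers in the members' changes was not tested. With rM3Ds, mural and fibroblast markers lay at 12.5 to 17.0 FPKM after CNO and 17.5 to 21.8 FPKM after vehicle, microglia markers at 34.8 to 37.1 against 33.3 to 36.9 FPKM and leukocyte markers at 4.91 to 6.25 against 4.80 to 6.24 FPKM, and limma called 1, 0 and 0 of these lists' genes.

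Over the 48 IP libraries, each centred on the control IP mean of its own experiment, the genes most like Osmr among 12532 were Tnfrsf1a (Pearson r = 0.984), Glipr2 (0.980), Cd44 (0.978), Flnc (0.976) and Txnrd1 (0.975). Those most like Socs3 were Mcl1 (r = 0.984), Cebpd (0.979), Sbno2 (0.977), Lmna (0.975) and Mafk (0.964). By Spearman's rho only Txnrd1 (0.903) remained among the 5 nearest to Osmr, with Tmbim1 first (0.931), and none of the 5 remained nearest to Socs3, where Maff came first (0.942). Among the members themselves, Osmr and Stat3 (r = 0.94), Socs3 and Stat3 (0.938), and Socs3 with Lif and with Osmr (0.925 each) ran closest, while Lifr had r from -0.465 to 0.473 with the others. These values describe libraries that fall into treated and control groups and share experiments and depth.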

How the data were processed

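Striatal RNA of 48 mice was sequenced as IP and input, 96 libraries in all. The authors deposited FPKM per gene and sample; reads were aligned with STAR to mm10 and counted with HTSeq, per the submitters' processing notes. The labels name a ribosomal RNA depletion kit and also polyA RNA. The deposited FPKM values of each library were whole multiples of 1 read per gene (within 0.001 reads for 100% of values), which gave 42482794 to 82256208 reads per IP library and 19462328 to 51033648 per input library.

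FPKM were scaled by TMM factors, written out for this work, and log2(FPKM + 0.1) was tested with limma 3.58.1 (R 4.3.3) with a mean-dependent prior, on genes at 0.5 FPKM or more in at least 4 libraries of the comparison. P-values were adjusted over all genes tested (Benjamini-Hochberg), and genes under 0.05 were called. Log2 changes on this scale understate changes of low genes. Each experiment's IP and input were fitted apart; differences between IP and input used the mouse as a block. The test was checked on simulated data. Single values of untested genes were compared with a two-sided exact permutation test.

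Members and gene lists were chosen with earlier results of these data known. List genes are named where called with no overlap between arms and a mean of 1 FPKM or more in either, at most 4 per list and comparison by size of change (members included); pattern neighbours are the 5 genes of highest Pearson r among those averaging 2 FPKM or more in an IP group. The labels do not say that equal replicate numbers share a litter or day, so p-values measure the spread between mice. Alternatives were other scalings, pseudocounts and filters, the replicate block, sex as a covariate, the spread of all libraries, each library left out and, chosen after seeing the data, limma-voom on the recovered reads and each library left out with the tested genes kept. Some genes of the lists are not reported here by name.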

Additional observations from a re-analysis of the deposited data

Results flagged for a closer look

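A single library stood apart from the other 3 of its group in 19 of the 216 groups examined (Dixon's test), where chance gives about 1 in 20. After quinolinic acid, mouse 4 was highest for Socs3 in IP (33.6 FPKM) and for Stat3 in IP (95.8) and input (54.0), mouse 3 lowest for Osmr in IP (57.5) and mouse 2 lowest for Il6st in IP (90.6); vehicle mouse 1 was highest for Osmr in input (2.78). LPS mouse 2 was lowest for Stat3 in input (30.0 FPKM) and highest for Lifr in IP (14.4), and LPS vehicle mouse 4 highest for Socs3 in IP (3.51) and input (2.82). With hM3Dq, vehicle mouse 1 was highest for Il6 in IP (0.412 FPKM) and Lif in input (0.475), vehicle mouse 4 for Lifr in input (5.22), and CNO mouse 2 for Socs3 (35.2) and Stat3 (47.3) in input. With rM3Ds, CNO mouse 3 was highest for Lif in input (1.95 FPKM). In the Itpr2 experiment, wild-type mouse 3 was highest for Il6 in IP (0.923 FPKM), wild-type mouse 4 lowest for Lifr in input (5.67) and mouse 3 labelled Itpr2-/- highest for Il11 in input (0.160).

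Treatment effects differed between IP and input, by a test of the difference itself, for 11 pairs of member and experiment. Log2 differences, IP minus input, were 3.29 for Clcf1, 2.72 for Il11, 1.66 for Socs3, 0.37 for Stat3 and -0.35 for Lifr with hM3Dq, 1.80 for Il6 with rM3Ds, -0.72 for Osmr and -0.35 for Stat3 with Cre, and -0.90 for Il6, -0.25 for Il6st and -0.20 for Stat3 after quinolinic acid. The CNO effects of the receptors, hM3Dq minus rM3Ds, differed in IP by 5.41 for Clcf1, 2.89 for Osmr, 2.57 for Socs3, 1.12 for Il11, 0.93 for Stat3, 0.28 for Il6st and -0.35 for Lifr, and in input by 2.37 for Osmr and 0.68 for Stat3.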

How the results depend on the processing

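Of 57 member calls in treated against control, 38 were tested and held in every setting run and without each library, 10 were lost in at least 1 and 0 reversed. The other 9, all low ligands, held wherever tested but missed the filter when a treated library was left out, and some of them also at 1 FPKM. With the genes of the full comparison kept in the test they held without each library (chosen after seeing the data). These 9 reached the filter in treated libraries alone, so that the rise itself brought them into the test. That they held is thus no support beyond their values. The counts of members called moved as follows. Without a filter Cre IP had 8 (5 in the main analysis). Cre input had 0 with the replicate block, 0 with the spread of all 48 libraries and 2 with voom (1). A filter at 1 FPKM gave 2 in rM3Ds input (4). For IP minus input, RLE scaling gave 1 after quinolinic acid (3) and 1 after LPS (0), a pseudocount of 1 gave 4 after LPS, 4 with rM3Ds (1) and 8 with hM3Dq (5), a pseudocount of 0.01 gave 0 with rM3Ds, and no mouse block gave 1 after quinolinic acid, 0 with Cre (2) and 0 with rM3Ds. For hM3Dq minus rM3Ds in input, no scaling gave 1, a pseudocount of 1 gave 4 and the replicate block 1 (2).

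The counts of all genes called moved too. Cre IP had 1608 with the spread of all 48 libraries (3989). Cre input had 27 without a filter, 28 with the replicate block, 161 with the spread of 48 and 141 with voom (50). The Itpr2 label had 31 in IP with the spread of 48 (0), and in input 5 with it and 0 without a filter, with the block, with sex and with voom (1). In hM3Dq input the block gave 339 and the spread of 48 gave 827 (550). Without the mouse block, IP minus input had 170 after LPS (1273) and 144 with rM3Ds. The block gave 129 for hM3Dq minus rM3Ds in input (204). Same-numbered mice did not deviate together in every pair in any comparison, so the numbers were not taken to pair mice.

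Leaving out 1 library gave 2280 to 8280 genes and 4 to 7 members in LPS IP, 1721 to 8627 and 3 to 7 in LPS input, 290 to 4922 and 0 to 3 for LPS IP minus input, 1 to 90 and 0 to 1 in Cre input, 130 to 407 and 0 to 3 for Cre IP minus input, 409 to 582 and 2 to 5 in rM3Ds IP, and 118 to 216 and 1 to 3 for hM3Dq minus rM3Ds in input. It gave 0 to 9 genes in IP, 0 to 3 in input and 0 to 1 for their difference with the Itpr2 label, and members numbered 5 to 9 in hM3Dq IP, 2 to 4 in rM3Ds input, 0 to 1 for rM3Ds IP minus input and 1 to 3 for quinolinic acid IP minus input. With 3 libraries in an arm a low ligand can miss the filter of 4 libraries, so some of these losses are genes no longer tested. The highest LPS counts came without mouse 2. The cause of the other moves was not tested. The planned edgeR fit was not run, since the deposited unit is FPKM, and voom took its place. Depth limits the ligands most: Il6, Il11 and Clcf1 rested on 0 to 98 reads in the control IP libraries.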
